A study of Mus musculus with 12 samples.

Results

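Fibroblast growth factor (FGF) feedback inhibitors and the FGF-induced ETV transcription factors were followed in mouse forelimb buds that lacked Hand2 or Tbx3. The set was chosen by name and holds 10 genes out of the 53465 in the files: Dusp6, Spry1, Spry2, Spry4, Spred1, Spred2, Spred3, Etv4, Etv5 and Il17rd. All 10 were found by their Ensembl mouse identifier, and all 10 passed the filter on low counts in every comparison, so none drops out below. The samples were 12 RNA-seq libraries in 4 groups of 3, all from the Swiss albino strain, and each library was made from the forelimb bud pair of 1 embryo. The Tbx3 series compared wild-type buds with buds of genotype Tbx3ΔVenus/ΔVenus at E9.75 to E10.0 (28 to 31 somites). In that allele the coding start of Tbx3 is taken up by a Venus reporter followed by a stop of transcription, and every cell of the embryo carries it. The Hand2 series compared Prrx1-Cre;Hand2+/+ buds with Prrx1-Cre;Hand2Δ/Δc buds at E10 to E10.25 (31 to 33 somites). Both Hand2 groups therefore carry the Cre transgene, which is driven by a limb mesenchyme promoter and leaves the ectoderm of the bud outside its reach.

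FGF ligands from the apical ectodermal ridge keep the limb mesenchyme growing, and mesenchymal FGF10 signals back to the ridge. Receptor activation runs through RAS and ERK, and the same cascade switches on its own brakes. Sprouty and SPRED proteins act on the RAS to RAF step, DUSP6 removes the activating phosphates from ERK in the cytoplasm, and IL17RD (also called SEF) dampens signalling at the membrane. Etv4 and Etv5 encode ETS family activators that are transcribed in response to the same ligands, and in the limb bud they are known for keeping Shh out of the anterior mesenchyme. For this reason Dusp6, Spry4, Etv4 and Etv5 are often read as reporters of FGF signalling.

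Libraries of the Tbx3 series held 23.3 to 31.8 M counts (M, 1000000) and those of the Hand2 series 60.2 to 68.6 M. Levels are given as CPM, counts per 1000000 after scaling all 12 libraries together. Hand2 itself was 121.2 ± 3.37 CPM (SD, n = 3) in its wild type and 0.923 ± 1.11 CPM in the Hand2-deficient buds. Tbx3 was 78.6 ± 0.569 CPM in its wild type and 78.1 ± 3.88 CPM in the libraries labelled Tbx3-deficient, so counts summed over the gene do not check that label. Limb mesenchyme markers were present in every library, with a summed level of 2059 to 2872 CPM over 10 genes. Hand2-deficient library 1 had 5.37% of its counts on 1 gene, CT010467.1, against at most 1.01% on any gene elsewhere. By Xist and Y-linked genes, the Tbx3 wild-type embryos were 3 females and the Tbx3-deficient ones 2 males and 1 female, with 1 male in the Hand2 wild type and 2 in the Hand2-deficient group. Since litters are not given, p-values measure the spread between these embryos.

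The 10 genes spanned a wide range of levels, and their order was largely shared by the 4 groups. Divided by the length of the merged exons, Dusp6 was highest in each group, at 66.1 to 79.1 CPM per kb. Etv5 came next at 30.3 to 33.1 CPM per kb, and for both genes the gap to the next exceeded the summed SDs in all 4 groups. Spry1, Spred1, Spred2, Etv4 and Il17rd filled the middle between 16.9 and 25.9 CPM per kb, where most neighbours lay within their summed SDs. Spry2 was eighth and Spry4 ninth in each group. Spred3 was last, at 1.05 to 1.74 CPM per kb, so the SPRED transcripts were almost wholly Spred1 and Spred2 on this scale. Spred3 made up 2.23% of the summed SPRED level per kb in the Tbx3 wild type and at most 3.80% in any group.

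**Figure D1:**
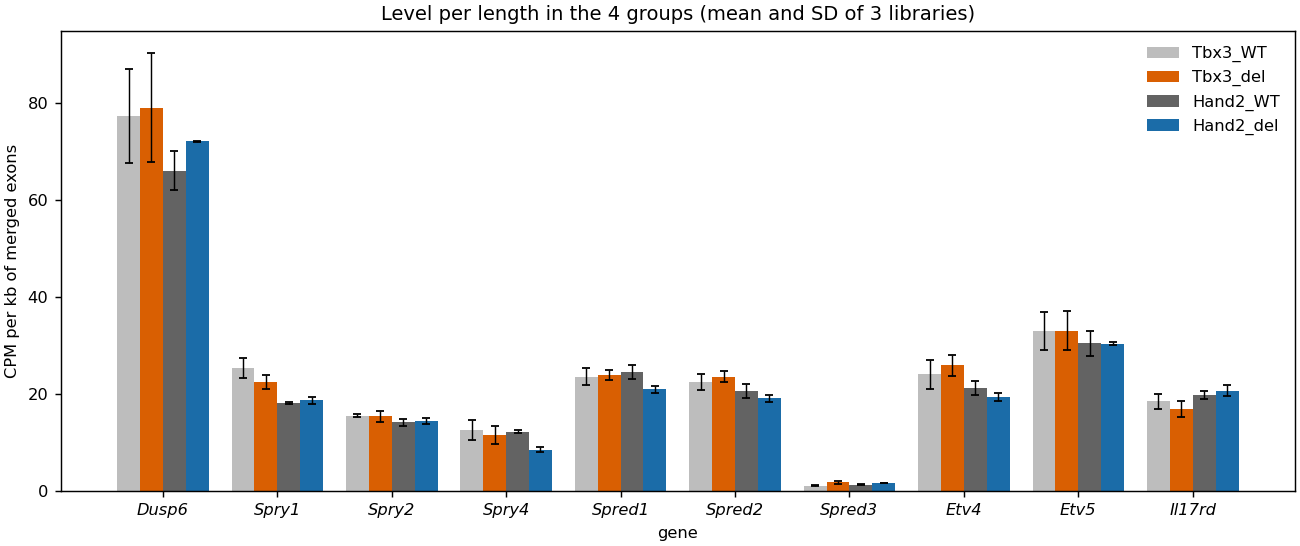
Mean level per kb of merged exons for each gene in the 4 groups, as bars from 0 with the SD of 3 libraries. Dusp6 stands highest at 66.1 to 79.1 CPM per kb, and Spred3 lowest at 1.05 to 1.74.

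Loss of Hand2 lowered Spry4. Spred1 was called lower by a smaller margin, a call that held in only 7 of 14 alternative fits. The other 8 genes, Dusp6, Etv4 and Etv5 among them, did not pass the test. Of the 10 genes, 2 were called lower and none higher (edgeR, adjusted p under 0.05), where 10.5% of the 17488 genes tested were called, 5.82% lower and 4.68% higher. Groups did not overlap for 5 of the 10 (38.0% of all genes tested), which were Spry4, Spred1 and Etv4 on the lower side (19.2%) and Dusp6 and Spred3 on the higher (18.8%). At an unadjusted p under 0.05 the count was 5 of 10, against 32.4% of all genes. The median log2 fold change of the 10 was 0.01, the same as the 0.01 over all genes tested. In whole buds, fewer cells of a type and less RNA per cell cannot be told apart.

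Sprouty genes encode intracellular brakes on receptor tyrosine kinase signalling. Spry4 (ENSMUSG00000024427, GRCm38 chr18:38586247-38601415, minus strand) read 57.92, 56.25 and 59.76 CPM in the 3 wild-type libraries and 39.65, 38.16 and 43.39 CPM in the Hand2-deficient ones. All 3 deficient libraries lay well below the lowest wild-type library. The means were 57.98 ± 1.76 and 40.40 ± 2.69 CPM, and Spry4 fell by 0.52 on the log2 scale (SE 0.0543, 95% interval -0.65 to -0.39). The edgeR adjusted p was 0.00448, and by p-value the gene ranked 101 of those tested. It was called in all 14 alternative fits, with a log2 fold change between -0.58 and -0.48, and without deficient library 1, the one with many counts on 1 gene, the value was -0.51 (edgeR adjusted p = 0.0237). Its share of the summed Sprouty level per kb was 27.5% in the wild type and 20.5% in the deficient group.

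Neither of the other Sprouty genes was called. Spry1 (ENSMUSG00000037211, chr3:37639947-37644598, plus strand) read 53.08, 51.70 and 52.85 CPM in the wild type and 55.89, 51.88 and 54.68 CPM without Hand2, so the ranges overlapped. Its log2 fold change was 0.04 (95% interval -0.05 to 0.13, edgeR adjusted p = 0.474). Spry2 (ENSMUSG00000022114, chr14:105891947-105896819, minus strand) read 27.80, 30.26 and 30.30 CPM against 30.08, 31.35 and 28.68 CPM. Those ranges overlapped too, with a log2 fold change of 0.03 (-0.11 to 0.17, edgeR adjusted p = 0.776). Both intervals leave out a fall of the size seen for Spry4.

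SPRED proteins are membrane-bound relatives of the Sproutys that bring neurofibromin to RAS. Spred1 (ENSMUSG00000027351, chr2:117121374-117182279, plus strand) read 171.0, 154.9 and 172.8 CPM in the wild type and 137.4, 147.3 and 141.9 CPM in the Hand2-deficient buds. The groups were apart, though the lowest wild-type library lay close to the highest deficient one. The means were 166.2 ± 9.86 and 142.2 ± 4.96 CPM, and Spred1 fell by 0.23 on the log2 scale (SE 0.0537, 95% interval -0.35 to -0.10, edgeR adjusted p = 0.0447). Most single libraries decided that call. It was lost without wild-type library 1 (edgeR adjusted p = 0.139) or 3 (0.150), and without deficient library 1 (0.117), 2 (0.0625) or 3 (0.113), and also with a replicate block (0.150) or embryo sex as a covariate (0.0880). It held in the other 7 of 14 alternatives, and the log2 fold change ran from -0.28 to -0.20 over all 14.

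Spred2 (ENSMUSG00000045671, chr11:19924375-20024026, plus strand) read 97.88, 87.88 and 100.2 CPM in the wild type and 89.34, 90.84 and 84.47 CPM in the deficient group. The ranges overlapped, with a log2 fold change of -0.11 (95% interval -0.24 to 0.02, edgeR adjusted p = 0.211). Spred3 (ENSMUSG00000037239, chr7:29158829-29170411, minus strand), the scarce member of the family, lay on the other side. It read 7.088, 8.837 and 7.610 CPM in the wild type and 9.635, 10.04 and 9.807 CPM without Hand2. The deficient libraries were all higher than the wild-type ones, at a log2 fold change of 0.32 (SE 0.0994, interval 0.09 to 0.56), but the edgeR adjusted p of 0.0771 missed the threshold. DESeq2 called it (adjusted p = 0.0346), as did edgeR without wild-type library 2 (adjusted p = 0.0375), and the other 12 of 14 alternatives did not. With the counts thinned to the depth of the Tbx3 series, the log2 fold change was 0.21 (edgeR adjusted p = 0.357).

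Dusp6, the ERK phosphatase, and Il17rd, the membrane inhibitor, were not called. Dusp6 (ENSMUSG00000019960, chr10:99263231-99267489, plus strand) read 202.3, 197.0 and 221.4 CPM in the wild type and 225.9, 226.0 and 225.4 CPM in the deficient buds. All 3 deficient libraries stood slightly above the highest wild-type one and were almost identical to each other. The log2 fold change was 0.13 (95% interval 0.00 to 0.25, edgeR adjusted p = 0.145). Il17rd (ENSMUSG00000040717, chr14:27038941-27107286, plus strand) read 209.2, 213.7 and 227.2 CPM against 241.3, 217.9 and 221.7 CPM. Those groups overlapped, at a log2 fold change of 0.07 (-0.07 to 0.20, edgeR adjusted p = 0.448).

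Both ETV factors missed the threshold as well. Etv4 (ENSMUSG00000017724, chr11:101769742-101785371, minus strand) read 65.04, 61.77 and 70.68 CPM in the wild type and 61.26, 61.54 and 57.30 CPM without Hand2. The groups only just separated, at a log2 fold change of -0.13 (95% interval -0.27 to 0.00, edgeR adjusted p = 0.150). Without wild-type library 3 it was -0.081, and with thinned counts -0.088. Etv5 (ENSMUSG00000013089, chr16:22381309-22439719, minus strand) read 129.0, 112.5 and 132.6 CPM against 125.7, 123.6 and 123.7 CPM. The deficient libraries lay inside the wild-type range, and the 95% interval of the log2 fold change ran from -0.15 to 0.14 (edgeR adjusted p = 0.968). Deficient means were 91.2% of the wild type for Etv4 and 99.8% for Etv5.

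**Figure D2:**
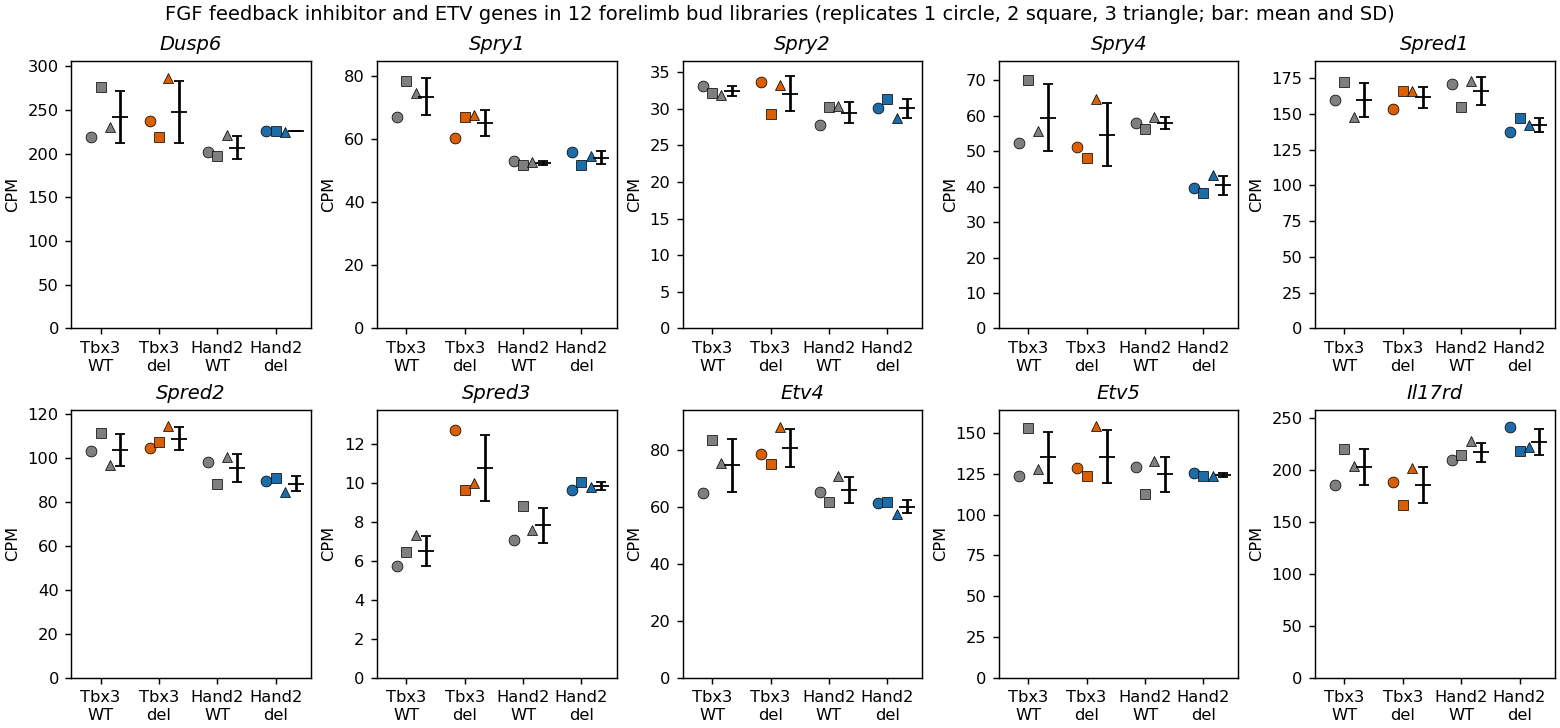
Level of each of the 10 genes in each of the 12 libraries, in CPM on axes from 0, with the mean and SD of each group. Spry4 lies at 38.16 to 43.39 CPM in the 3 Hand2-deficient libraries, below all 3 of their wild types, and Spred3 lies higher in the deficient libraries of both series.

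**Figure D3:**
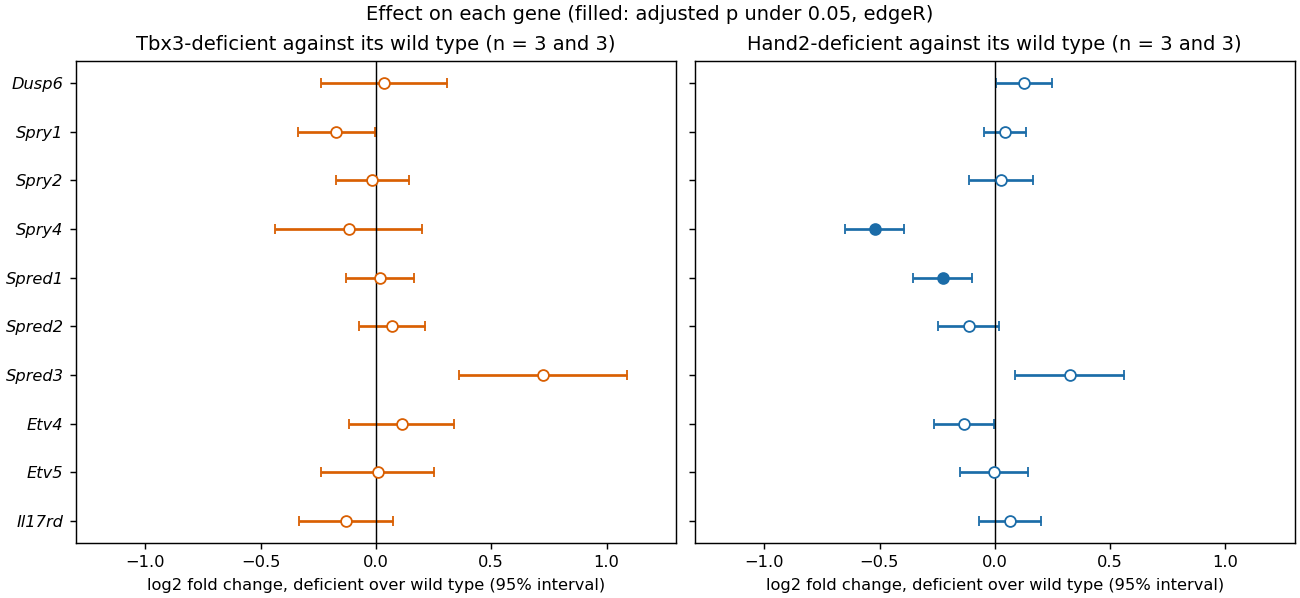
Log2 fold change of each gene, deficient over wild type, with its 95% interval, in the Tbx3 series (left) and the Hand2 series (right). Filled points passed an edgeR adjusted p of 0.05, and only Spry4 and Spred1 in the Hand2 series did.

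The ligands upstream of these genes were measured in the same Hand2-deficient libraries. Of 13 FGF ligand genes tested, 6 fell and 2 rose (edgeR), while none of 7 receptor and co-factor genes was called. Over all genes tested, 5.82% were called lower and 4.68% higher. Fgf8, the main ligand of the apical ridge, read 37.10, 48.07 and 46.88 CPM in the wild type and 24.49, 25.43 and 28.58 CPM without Hand2. It fell by 0.75 on the log2 scale (SE 0.109, edgeR adjusted p = 0.0144), a call lost only without wild-type library 3 (adjusted p = 0.0620). No deficient library reached the lowest wild-type level.

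Fgf4, a ridge ligand of the posterior bud, was much scarcer and more variable. It read 1.026, 3.789 and 2.572 CPM in the wild type and 0.472, 0.531 and 0.382 CPM in the deficient group, and fell by 2.41 on the log2 scale (SE 0.467, edgeR adjusted p = 0.0294). Groups did not overlap, yet wild-type library 1 stood nearer to the deficient libraries than to its own group. The Fgf4 call was lost without wild-type library 3 (edgeR adjusted p = 0.0954) and without deficient library 1 (0.0865), 2 (0.0594) or 3 (0.0912). It was also lost in limma-voom (adjusted p = 0.0595), and in edgeR with embryo sex (0.0637) or a replicate block (0.0948). Fgf9, another ridge ligand, fell from 1.62 ± 0.339 to 0.763 ± 0.0776 CPM (log2 fold change -1.08, edgeR adjusted p = 0.0296). Its call was lost without wild-type library 3 (0.106) and without deficient library 1 (0.0851), 2 (0.0634) or 3 (0.0709). Embryo sex (edgeR adjusted p = 0.0647), a replicate block (0.113) or thinned counts (0.0682) ended the Fgf9 call too.

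Fgf10, the mesenchymal ligand that maintains the ridge, read 41.85, 34.78 and 43.15 CPM in the wild type and 23.95, 31.35 and 22.94 CPM in the deficient buds. The groups were apart and Fgf10 fell by 0.61 on the log2 scale (SE 0.135, edgeR adjusted p = 0.0387). That call was lost without wild-type library 1 (edgeR adjusted p = 0.117) or 3 (0.132) and without deficient library 1 (0.108) or 3 (0.101). It was also lost with embryo sex (edgeR adjusted p = 0.0746) or a replicate block (0.130). Fgf15 was near the limit of detection, at 0.377 CPM in the wild type and 0.0349 CPM in the deficient group (edgeR adjusted p = 0.0227), also lost without wild-type library 1 (0.0720) or 3 (0.0895) or deficient library 3 (0.0730). A replicate block (edgeR adjusted p = 0.109) or embryo sex (0.0542) ended the Fgf15 call too.

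The ligand genes that rose were Fgf13 and Fgf2. Fgf13, an intracellular FGF homologue that is not secreted to receptors, rose from 5.32 ± 0.678 to 9.97 ± 1.83 CPM (log2 fold change 0.90, edgeR adjusted p = 0.0226). Fgf2 rose from 1.85 ± 0.224 to 3.40 ± 0.576 CPM (0.87, edgeR adjusted p = 0.0297). Both calls were lost without wild-type library 1 (Fgf13 0.0761, Fgf2 0.0912) or 3 (0.0933 and 0.0945), and that of Fgf2 also without deficient library 1 (0.0738) or 3 (0.0752). Neither was called with a replicate block (edgeR adjusted p = 0.0954 and 0.127) or embryo sex (0.0553 and 0.0664). Fgf2 also missed the threshold with thinned counts (edgeR adjusted p = 0.0550). The receptors Fgfr1, at 267.1 ± 15.3 and 261.9 ± 18.02 CPM, and Fgfr2, at 98.2 ± 10.6 and 85.4 ± 3.32 CPM, were not called (edgeR adjusted p = 0.795 and 0.129).

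Set side by side as a percent of the wild-type mean, deficient buds held 18.8% of Fgf4, 47.2% of Fgf9, 59.5% of Fgf8 and 65.3% of Fgf10. Of the feedback genes, Spry4 was at 69.7% and Spred1 at 85.6%, and Dusp6 was at 109.1%. These are levels of different genes in the same libraries, and a relation between ligand and feedback levels was not tested.

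**Figure D4:**
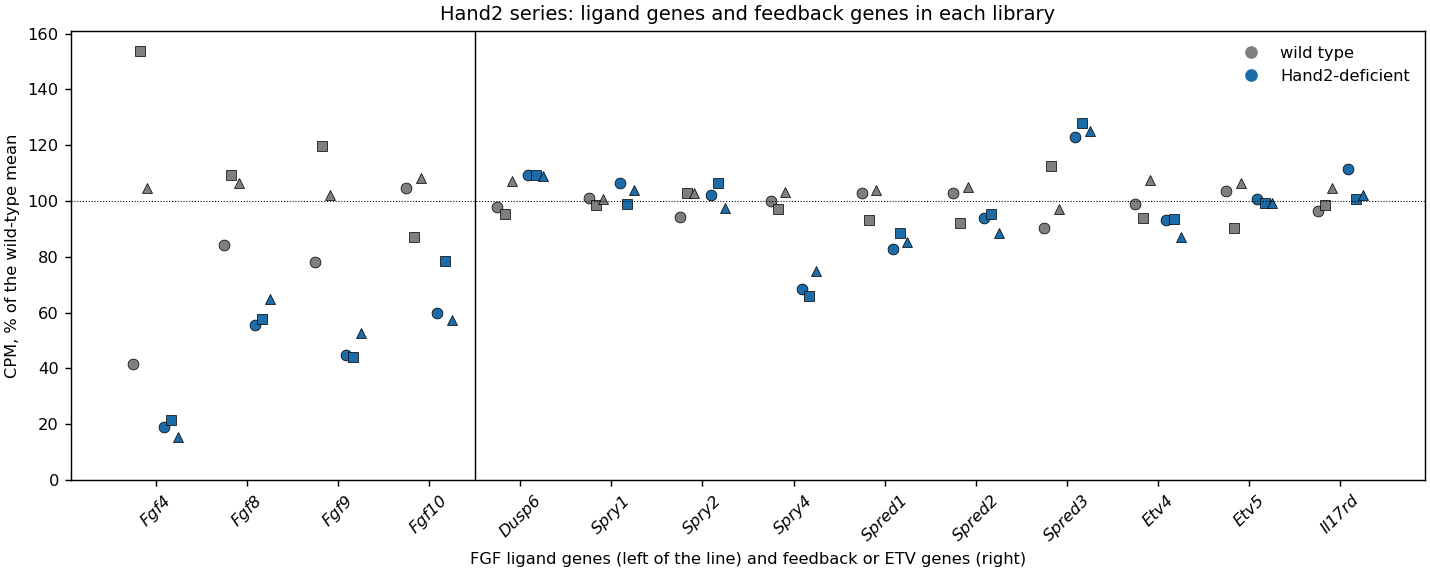
CPM in each of the 6 Hand2 series libraries as a percent of that gene's wild-type mean, for 4 FGF ligand genes (left of the line) and the 10 feedback and ETV genes (right). The deficient libraries of Fgf8 lie at 55.6% to 64.9% and those of Spry4 at 65.8% to 74.8%, while those of Dusp6 lie at 108.9% to 109.2%.

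Over the whole pathway list of 78 genes, ligands included, 20 of 75 tested were called in the Hand2 series (edgeR). Of these, 6 were higher and 14 lower, where 4.68% and 5.82% of all genes tested were. Besides the ligands, these were 3 of 20 cascade genes (1 higher, 2 lower), 2 of 15 other dampers (both lower) and 7 of 20 other ETS and response genes (3 higher, 4 lower). Ets2, an ETS factor activated by ERK, fell from 224.9 ± 5.999 to 126.6 ± 3.63 CPM (log2 fold change -0.83, SE 0.0417, edgeR adjusted p = 0.000288). Egr1, an immediate early gene, rose from 2.39 ± 0.247 to 5.50 ± 0.404 CPM (1.20, edgeR adjusted p = 0.00378). Ets2 and Egr1 were called in all 14 alternatives.

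Ccnd1, which encodes the cyclin that drives entry into S phase, fell from 268.2 ± 14.2 to 187.3 ± 13.7 CPM (-0.52, edgeR adjusted p = 0.0101). The RAS gene Hras fell from 75.6 ± 1.60 to 65.1 ± 0.947 CPM (-0.22, edgeR adjusted p = 0.0120), a call lost without wild-type library 1 (0.0569) or 3 (0.0769) or deficient library 3 (0.0577). Lhx9, a LIM homeobox gene of the distal mesenchyme, rose from 270.9 ± 33.0 to 393.1 ± 25.1 CPM (0.54, edgeR adjusted p = 0.0220). Its call was lost without wild-type library 1 (0.0774) or deficient library 1 (0.0681) or 3 (0.0637). Errfi1, a feedback inhibitor of EGF receptors, fell from 42.1 ± 1.94 to 35.1 ± 1.37 CPM (-0.26, edgeR adjusted p = 0.0303) and lost its call without any 1 library other than wild-type library 2 (0.0517 to 0.101). A replicate block ended the calls of Ccnd1 (edgeR adjusted p = 0.0808), Hras (0.106), Lhx9 (0.0809) and Errfi1 (0.127). Embryo sex ended that of Errfi1 as well (edgeR adjusted p = 0.0662). Leaving out single libraries brought the count of called pathway genes to 7 (wild-type library 1), 4 (wild-type library 3), 7, 12 and 5 (deficient libraries 1, 2 and 3).

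Summed levels of several marker lists did not overlap between the Hand2 groups, though few of their genes were called. The summed level of 14 apical ridge and ectoderm markers was 346.9 to 375.5 CPM in the wild type and 313.0 to 340.9 CPM in the deficient group, without overlap, and Fgf8 was the 1 gene of that list called. Fgf8 is itself part of that sum, with means of 44.02 and 26.17 CPM, and the median log2 fold change of the list was -0.027. The limb mesenchyme sum was 2144 to 2311 CPM in the wild type and 2480 to 2872 CPM in the deficient group, with 4 of 10 genes called higher and 1 lower. Endothelial markers summed to 283.1 to 285.8 CPM and 298.7 to 319.3 CPM, with Cdh5 called higher of 8, and muscle progenitor and somite markers to 134.6 to 166.4 CPM and 183.1 to 204.4 CPM, with none called of 8. Macrophage markers summed to 3.08 to 5.22 and 5.71 to 10.95 CPM, with none called of 5, and neural crest and neuron markers to 95.47 to 106.3 and 110.2 to 123.4 CPM, with none called of 6. Body wall markers summed to 5.309 to 29.17 and 22.25 to 50.74 CPM, with Gata4 called higher of 4 tested. The sums of body wall, red cell, immediate early and hypoxia genes overlapped between the groups. No gene of these lists was at 0 in both groups of a comparison, and the part of cell makeup in the values of Spry4 and Spred1 was not tested.

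In the Tbx3 series none of the 10 genes was called (edgeR), where 1.01% of 15130 genes tested were, 0.727% higher and 0.284% lower. At an unadjusted p under 0.05 the count was 2 of 10 (14.3% of all genes), Spred3 and Spry1, and DESeq2 called 1. The median log2 fold change of the 10 was 0.01, against 0.00 over all genes. Groups did not overlap for 1 of the 10, Spred3, on the higher side (20.4% of all genes did not overlap, 10.5% on the higher side and 9.91% on the lower). Spred3 read 5.760, 6.474 and 7.327 CPM in the wild type and 12.75, 9.640 and 10.01 CPM in the libraries labelled Tbx3-deficient. Every deficient library was above every wild-type one, with means of 6.52 ± 0.784 and 10.80 ± 1.70 CPM.

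The log2 fold change of Spred3 was 0.73 (SE 0.157, 95% interval 0.36 to 1.09), and its edgeR adjusted p was 0.0935. It passed the threshold with no filter on low counts (edgeR adjusted p = 0.0241), in DESeq2 (adjusted p = 0.00509) and in an edgeR fit of all 12 libraries (adjusted p = 0.0183), and missed it in the other 10 of 13 alternatives. With embryo sex as a covariate the log2 fold change was 0.62. That value rests on deficient library 3, the only female of its group, because all the wild types were female. Its exons share 202 bases with Ggn on the opposite strand, and the strand protocol is not given, so reads of that stretch could belong to either gene. Ggn averaged 0.722 to 1.03 CPM over the 4 groups, well under Spred3. Genes of hypoxia and glycolysis also moved with this genotype: 10 of 12 were called higher, and their summed level was 3146 to 3564 CPM in the wild type and 4551 to 6413 CPM in the deficient libraries. Macrophage markers (1.18 to 3.57 and 4.80 to 5.88 CPM, none of 2 tested called), neural crest and neuron markers (93.67 to 102.5 and 104.7 to 121.9 CPM, none of 5) and limb mesenchyme markers (2181 to 2254 and 2059 to 2179 CPM, 1 of 10 called lower) did not overlap either. The sums of the other marker lists overlapped, that of the ridge and ectoderm at 355.7 to 381.3 and 380.2 to 400.7 CPM with 1 of 14 called higher. The part of these cells and states in the Spred3 values was not tested.

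The Sprouty genes overlapped between the Tbx3 groups. Spry1 read 67.10, 78.65 and 74.77 CPM in the wild type and 60.55, 67.13 and 67.84 CPM in the deficient libraries, which lay low but shared part of the range (log2 fold change -0.17, 95% interval -0.34 to 0.00, edgeR adjusted p = 0.338). Spry4 read 52.32, 70.21 and 55.78 CPM against 51.23, 48.11 and 64.71 CPM, with 1 library of each group standing high. Its log2 fold change of -0.12 had a wide interval of -0.44 to 0.20 (edgeR adjusted p = 0.750). Spry2, at 33.10, 32.15 and 31.80 CPM against 33.56, 29.24 and 33.23 CPM, had a log2 fold change of -0.02 (-0.17 to 0.14, edgeR adjusted p = 0.942).

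Spred1 read 159.7, 172.0 and 147.8 CPM in the Tbx3 wild type and 153.2, 165.7 and 166.2 CPM in the deficient group. Spred2 read 103.0, 111.2 and 96.55 CPM against 104.4, 107.0 and 114.3 CPM. Both pairs of groups overlapped, with log2 fold changes of 0.02 (95% interval -0.13 to 0.17) and 0.07 (-0.07 to 0.21). Dusp6 read 219.3, 276.3 and 230.9 CPM against 237.4, 218.6 and 286.8 CPM, a log2 fold change of 0.03 (-0.24 to 0.31). Il17rd read 185.1, 219.7 and 203.7 CPM against 188.0, 166.4 and 201.2 CPM, a log2 fold change of -0.13 (-0.33 to 0.07), which was -0.056 without deficient library 2 and -0.074 without wild-type library 2. Neither of these inhibitors had separate groups.

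Etv4 read 64.91, 83.42 and 75.15 CPM in the Tbx3 wild type and 78.51, 74.96 and 87.86 CPM in the deficient libraries (log2 fold change 0.11, 95% interval -0.12 to 0.34), and without wild-type library 1 the value was 0.027, without wild-type library 2 0.20 and without deficient library 3 0.043. Etv5 read 123.9, 153.3 and 128.2 CPM against 128.8, 124.0 and 154.2 CPM (0.01, -0.24 to 0.25). As with Spry4 and Dusp6, 1 library in each group stood above the other 2. With embryo sex as a covariate, edgeR gave 0.25 for Dusp6, 0.24 for Etv4, 0.19 for Etv5 and -0.011 for Il17rd. These values rest on deficient library 3, the only female of its group, because all the wild types were female.

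The ligands and receptors were not called in the Tbx3 series. Nearest to the threshold were 2 scarce ligands with no overlap between groups, each moving opposite to its change in the Hand2 series. Fgf2 averaged 2.79 CPM in the wild type and 0.957 CPM in the deficient group (log2 fold change -1.53, edgeR adjusted p = 0.0684). Fgf15 averaged 0.296 and 1.29 CPM (2.12, edgeR adjusted p = 0.0615). Fgf8 averaged 50.2 ± 2.00 CPM in the wild type and 49.2 ± 9.53 CPM in the deficient group (edgeR adjusted p = 0.942), and Fgf4 1.47 ± 0.513 and 2.27 ± 1.45 CPM (0.643). Fgf10 averaged 40.8 ± 2.69 and 38.9 ± 1.51 CPM (edgeR adjusted p = 0.672), Fgfr1 259.1 ± 12.1 and 237.0 ± 17.9 CPM (0.466) and Fgfr2 92.7 ± 7.90 and 93.9 ± 14.5 CPM (0.956). Of 73 pathway genes tested, 2 rose and 1 fell (edgeR), where 0.727% of all genes tested were called higher and 0.284% lower. Ier3, an early response gene, rose from 2.00 ± 0.131 to 5.44 ± 1.16 CPM (log2 fold change 1.44, adjusted p = 0.0250 in edgeR), Mapk3, which encodes ERK1, from 58.3 ± 0.150 to 69.5 ± 1.10 CPM (0.25, 0.0432), and Ets2 fell from 216.7 ± 16.7 to 163.6 ± 9.53 CPM (-0.40, 0.0462). The calls of Ier3 and Ets2 were lost without any 1 library other than Tbx3-deficient library 1 (edgeR adjusted p up to 0.0930 and 0.168), and that of Mapk3 without any 1 of the 6 (0.0799 to 0.148). A replicate block also ended the calls of Ier3 (edgeR adjusted p = 0.059), Ets2 (0.0846) and Mapk3 (0.137). Limma-voom missed Ets2 (adjusted p = 0.0513) and Mapk3 (0.0542). Ets2 and Mapk3 were also not called in edgeR with embryo sex as a covariate (log2 fold change -0.49 and 0.23). Those values rest on deficient library 3, the only female of its group, because all the wild types were female.

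The difference between both effects was tested in a fit of all 12 libraries. None of the 10 genes passed (edgeR, 1.68% of 17360 genes did, 0.789% higher and 0.893% lower), and 3 had an unadjusted p under 0.05 (17.4% of all genes). These were Spred1 (Hand2 effect minus Tbx3 effect -0.24 on the log2 scale, SE 0.0890, edgeR adjusted p = 0.201), Spry1 (0.22, SE 0.0856, 0.230) and Spry4 (-0.40, SE 0.167, 95% interval -0.77 to -0.04, 0.250). The fall of Spry4 is thus called in 1 series and not in the other, without a called difference between them. For Spred3 the difference was -0.40 (-0.80 to 0.00, edgeR adjusted p = 0.290).

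Between the wild types, Spry1 stood out of the set. Read in CPM, the Hand2 wild-type libraries (53.08, 51.70 and 52.85) lay below the Tbx3 wild-type ones (67.10, 78.65 and 74.77), without overlap. The means were 52.54 ± 0.735 and 73.51 ± 5.88 CPM, and the log2 difference was -0.48 (SE 0.0606, 95% interval -0.62 to -0.35, edgeR adjusted p = 0.00880), the eighth smallest p-value of all genes tested. It was called in all 18 alternatives (log2 difference -0.54 to -0.44). Of the 10 genes it was the 1 called, lower, against 2.07% of 17360 genes called (1.02% lower), and 2 did not overlap, Spry1 and Spry2, both lower (23.7% of all genes, 11.1% lower). At an unadjusted p under 0.05 the count was 2 of 10, Spry1 and Dusp6, against 18.7% of all genes. The median of the 10 was -0.12 and that of all genes 0.00.

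Dusp6 was 242.2 ± 30.1 CPM in the Tbx3 wild type and 206.9 ± 12.8 CPM in the Hand2 wild type (log2 difference -0.23, edgeR adjusted p = 0.259). Spry2 was 32.35 ± 0.672 and 29.45 ± 1.43 CPM (-0.14, 0.271 in edgeR). With the Hand2 counts thinned to the depth of the Tbx3 series, the log2 difference of Spry1 was -0.49 (edgeR adjusted p = 0.0108), as large as at full depth. Thinning evens out only the number of counts. Stage, colony, sequencing depth and the Cre transgene differ together between both wild types and cannot be told apart. Embryo sex differs in part, since Hand2 wild-type library 3 was male and all the Tbx3 wild types were female. Marker sums that did not overlap between these wild types, Tbx3 first, were those of hypoxia and glycolysis (3146 to 3564 and 2544 to 2835 CPM, 1 of 12 called lower), immediate early genes (188.9 to 197.3 and 166.8 to 181.8 CPM, 1 of 7 tested called lower), muscle progenitor and somite (167.5 to 183.6 and 134.6 to 166.4 CPM, 1 of 8 called lower) and endothelium (287.3 to 319.8 and 283.1 to 285.8 CPM, none of 8 called). Their part in the Spry1 difference was not tested. The exons of Spry1 share 710 bases with Gm42922 on the opposite strand, which averaged 0.858 to 1.62 CPM over the 4 groups. Of 74 pathway genes tested, 1 was called higher and 1 lower, against 1.05% and 1.02% of all genes tested. These were Cblb, a ubiquitin ligase (78.6 ± 1.89 and 93.8 ± 2.83 CPM, edgeR adjusted p = 0.0167), and Egr1 (5.17 ± 0.540 and 2.39 ± 0.247 CPM, 0.0156), both named after their values were seen. That count of 2 was 1 without Tbx3 wild-type library 1 or any 1 Hand2 wild-type library, and 4 without Tbx3-deficient library 3.

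Within each group, most genes of the set were highest in the same embryo, by a smaller count in the Hand2-deficient group. In the Tbx3 wild type, 8 of the 10 had their highest value in library 2 and 7 their lowest in library 1. In the Tbx3-deficient group 8 were highest in library 3 and 7 lowest in library 2, and the 8 names were the same as in the wild type: Dusp6, Spry1, Spry4, Spred1, Spred2, Etv4, Etv5 and Il17rd. In the Hand2 wild type, 8 were highest in library 3, and 7 were lowest in library 2. The Hand2-deficient group was less uniform, where library 2 held the highest value of 6 and library 1 that of 3. These counts describe single embryos, and genes read in 1 library share its depth and scaling. The share of all genes that were highest in the same libraries was not counted, so the pattern cannot be called particular to the set.

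Genes often used as reporters varied more between embryos in the Tbx3 series than most genes did. In the Tbx3 wild type the coefficient of variation was 15.97% for Spry4, 12.4% for Dusp6, 12.5% for Etv4, 12.03% for Spred3 and 11.8% for Etv5, against a median of 8.16% over the genes tested. It was 2.08% for Spry2. In the Hand2-deficient group it was 0.156% for Dusp6, 0.971% for Etv5, 3.96% for Etv4 and 6.67% for Spry4, where the median over genes was 6.37%.

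The summed level of 5 body wall and coelomic lining markers also differed between embryos, at 44.23, 7.043 and 13.77 CPM in Tbx3 wild-type libraries 1, 2 and 3 and 61.04, 85.49 and 43.95 CPM in the deficient ones. In both groups the library with the least of it was the one in which 8 of the 10 genes were highest. In the Hand2 wild type, library 3 also had the least (29.17, 14.06 and 5.309 CPM in libraries 1, 2 and 3), where 8 of the 10 were highest. The Hand2-deficient group went the other way: its sums were 22.25, 50.74 and 37.61 CPM, and library 2, with the most, held the highest value of 6 genes. Body wall markers were not alone in marking Tbx3 wild-type library 2 and Tbx3-deficient library 3. Sums of immediate early genes (197.3 and 202.3 CPM), hypoxia and glycolysis (3564 and 6413) and muscle progenitor and somite markers (183.6 and 210.4) were the highest of their groups there. In Hand2 wild-type library 3 none of those sums was the highest of its group (173.7, 2544 and 134.6 CPM). The part of dissection, or of the cells and states behind these lists, in the levels of the 10 genes was not tested.

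**Figure D5:**
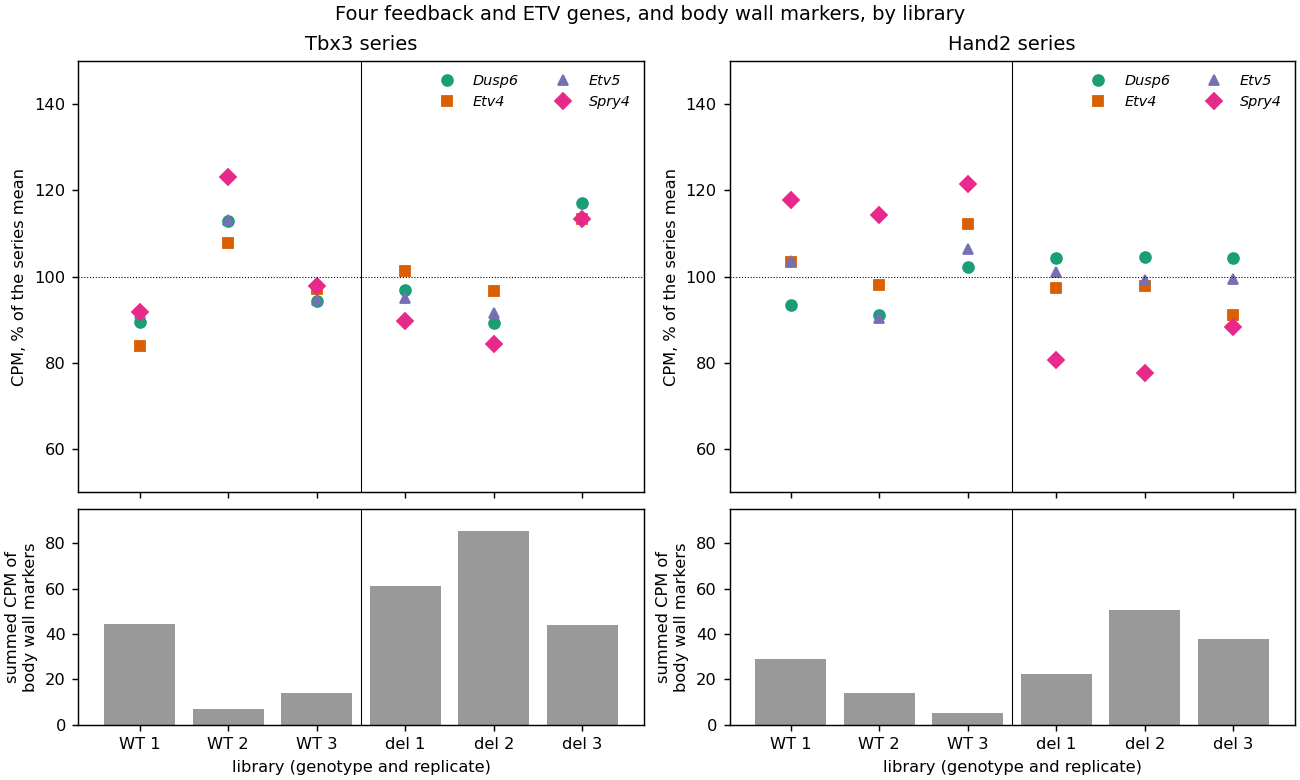
Upper panels: CPM of Dusp6, Etv4, Etv5 and Spry4 in each library as a percent of the series mean. Lower panels: summed CPM of 5 body wall markers, where the bars of Tbx3 wild-type library 2 (7.043 CPM) and Tbx3-deficient library 3 (43.95 CPM) are the lowest of their groups and the upper points are the highest.

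Centred within each series, the level of each gene was compared with the mean of the set over the 12 libraries, as a description. Etv5 followed that mean most closely (Pearson r = 0.935), then Etv4 (0.876) and Dusp6 (0.826). Spry4 had r = 0.653, Spry1 0.338, Spry2 0.303 and Spred3 -0.07. Each gene is part of the mean, which raises its r, and the libraries share depth and scaling within a series. Other genes were ranked if they had at least 5 CPM and a symbol that was not a Gm, Rik, AC or BC name. Among these, the 5 most like the mean of the set were Ap4e1 (r = 0.843), Rtn1 (0.838), Lmx1b (0.831), Grtp1 (0.828) and Adprh (0.826), over 12 libraries. Lmx1b, a LIM homeobox gene of the dorsal limb mesenchyme, was the most abundant of the 5, with group means of 183.9 to 223.1 CPM.

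Promoter sequence was read for 8 of the 10 genes, in 9 RefSeq windows of 300 bases (250 before to 50 after the start, GRCm38.p6), and searched on both strands. The ETS motif CCGGAAGT was in 0 of the 9 windows and in 3.89% of all 32851. Its shorter core GGAAGT, which lies inside that motif, was in 2 of 9 (Spred2 and Etv5), against 23.8% of all windows. The T-box motif AGGTGTGA was in 0 of 9 (1.28% of all), and the E-box CATCTG in 1 of 9 (Etv5), against 17.2%. Etv4 and Spry4 were not searched. Etv5 has a match to an E-box, the kind of site that bHLH factors such as HAND2 bind, and matches to the ETS core in the windows of different starts, so 1 of each is shown with 30 bases on the gene's strand, the match in capitals. The first lies at chr16:22439777-22439806, 224 bases before its start and outside the gene in GENCODE, and the second at chr16:22438568-22438597, 217 bases before a second start and inside the Etv5 gene but in no exon, both on the minus strand. A further GGAAGT lies 2 bases after that second start and is not shown.
Etv5 E-box: caatgggcgccgCAGATGatggggcggccc
Etv5 ETS core: tgggaattgggtGGAAGTgtgtcttgtttt
A match of letters is a description and no measure of binding, and Etv5 was called in none of the comparisons.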

How the data were processed

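The authors deposited RSEM expected counts, 1 value per Ensembl gene and library, per the file headers. As aligner, quantifier and read check, the submitters' processing notes list STAR 2.5.2, RSEM 1.3.0 and FastQC 0.11.4, with mm10 as build. Strand setting and annotation release: not given in the sources used here. Symbols and positions come from GENCODE M21 (GRCm38). RSEM divides reads shared by overlapping genes between them. Values were rounded before testing.

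edgeR 4.0.16 (R 4.3.3) compared the 3 deficient and 3 wild-type libraries of each series by its quasi-likelihood F test, after TMM scaling and filterByExpr with minimum count 10 and minimum total 15. Adjusted p-values are Benjamini-Hochberg values over every gene that passed the filter, and called means an adjusted p under 0.05. Fold changes use a prior count of 0.125. Each SE is the absolute log2 fold change over the root of F, and 95% intervals use the t quantile. The difference of effects and the wild types came from a fit of all 12 libraries. CPM are counts scaled by TMM over 12 libraries. Scripts were tested on simulated data. Alternatives were DESeq2 1.42.0 and its size factors, limma 3.58.1 (voom), no filter, a replicate block, embryo sex, a fit of 12 libraries, Hand2 counts thinned to 23.3 M, and each library left out. The 10 genes, the 78 pathway genes, the marker lists and the motifs were chosen with earlier results of these data known. Pathway genes are named if called (at most 12 per comparison, by adjusted p), and Fgf8, Fgf4, Fgf10, Fgfr1 and Fgfr2 always. Genes most alike are the 5 with the highest r of log2(CPM + 1), at 5 CPM or more, leaving out Gm, Rik, AC and BC names and genes without a symbol.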

Additional observations from a re-analysis of the deposited data

How the results depend on the processing

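Spry4 in the Hand2 series was called in 14 of 14 alternatives and Spry1 between the wild types in 18 of 18. The 10 genes had 1 call in the Tbx3 series with no filter, with DESeq2 and in the fit of 12 libraries, and 0 in each fit without 1 library. In the Hand2 series they had 1 call with embryo sex as covariate and 1 to 3 without single libraries. No difference of effects on them was called in any alternative. Pathway calls in the Tbx3 series were 5 with no filter, 6 with DESeq2, 1 with limma-voom, 1 with embryo sex, 5 in the fit of 12 libraries and 0 to 2 without single libraries. In the Hand2 series they were 7 with embryo sex and 4 to 18 without single libraries. Between the wild types they were 4 with no filter, 12 with DESeq2, 1 with embryo sex and 1 to 4 without single libraries. The cause of these shifts was not tested, beyond the smaller number of samples where a library is left out.

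For each gene tested, the deviation of each library from its group mean of log2(CPM + 1) was taken. Over genes, these deviations were correlated between wild-type and deficient libraries of a series. Pairs with the same number had r = 0.081, 0.023 and -0.023 for Tbx3, and -0.19, 0.049 and 0.11 for Hand2. Pairs with different numbers ran from -0.12 to 0.10 for Tbx3 and from -0.28 to 0.24 for Hand2. With so few libraries per group, these values cannot decide whether the numbers pair embryos by litter or batch. With a replicate block 0 of the 10 genes were called without Tbx3 and 1 without Hand2, along with 0 and 3 pathway genes. Over all genes the block gave 87 calls against 153 for Tbx3, and 161 against 1836 for Hand2. A block could not be fitted between the wild types.

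Over all genes, counts of calls ran from 22 to 551 in the Tbx3 series (23 to 220 without single libraries), from 161 to 3451 in the Hand2 series (218 to 2223), from 69 to 859 for the difference (123 to 336) and from 77 to 1169 between the wild types (57 to 359). Uncalled log2 fold changes near 0 changed sign or size. Without single libraries, and with no change of sign, the Tbx3 series gave Spred2 0.028 to 0.12, Etv4 0.027 to 0.20 and Il17rd -0.19 to -0.056, and the Hand2 series gave Spry1 0.016 to 0.072, Spred2 -0.17 to -0.077, Etv4 -0.18 to -0.081 and Il17rd 0.017 to 0.0997. With embryo sex, the Tbx3 series gave Spry2 0.039, Spry4 0.12, Fgf8 0.21 and Fgfr2 -0.24. In that fit the genotype value rests on deficient library 3, the only female of its group. With Hand2 counts thinned, Spry2 was -0.046 and Etv5 0.0087 in the Hand2 series, and Spry2 -0.035 in the difference. Without single libraries, the Tbx3 series gave Dusp6 -0.086 to 0.13, Spry2 -0.051 to 0.049, Spry4 -0.26 to 0.012, Spred1 -0.028 to 0.069, Etv5 -0.096 to 0.10, Fgf8 -0.16 to 0.12 and Fgfr2 -0.087 to 0.13. The Hand2 series gave Spry2 -0.014 to 0.060, Etv5 -0.075 to 0.040 and Fgfr1 -0.086 to 0.015. The difference gave Dusp6 -0.0094 to 0.21, Spry2 -0.021 to 0.078 and Etv5 -0.11 to 0.088, and the wild types gave Spry4 -0.11 to 0.097. Tbx3 libraries were less deep, which limits Spred3 (134 to 313 counts each) more than the other 9 genes.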
